A study of Mus musculus with 2 samples.

Results

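The Slc25 genes encode carrier proteins, most of them in the mitochondrial inner membrane, and their transcripts were compared between a control muscle and a muscle carrying activated Notch2. The members were all genes whose name in the array files is Slc25a followed by a number, which gave 47 of 27484 named genes, read by 58 probes in 76 spots. The samples were tibialis anterior muscles, a leg muscle of mainly fast fibres, from adult male mice of the C57BL/6 strain. The control group was 1 sample with the genotype given as control, and the other group was 1 sample of a mouse transgenic for N2ICD, the intracellular part of the receptor Notch2, labelled N2ICD-mTG. N2ICD acts in the nucleus with the DNA-binding protein RBPJ without needing a ligand. The labels do not name the promoter that drives the transgene or the cells that carry it, what alleles the control mouse had, or whether the RNA of several animals was pooled. Each group was 1 array and the submitters describe a single experiment, so genotype, animal, dissection and array cannot be told apart, and no difference given here has a replicate check or a p-value.

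A Slc25 carrier is a small protein that spans the inner membrane and swaps or imports 1 kind of solute, such as a nucleotide, an amino acid, a carboxylate, a vitamin cofactor or an acylcarnitine. Its gene is nuclear, and the protein is made in the cytosol, drawn in through the outer membrane pore and placed in the inner membrane by a dedicated set of Tim proteins. In muscle the family is known above all for the ADP/ATP carrier, which passes mitochondrial ATP to the myofibrils, and for the carriers that feed fatty acids, reducing equivalents and phosphate to the matrix. The family is marked by a repeated signature of a proline, an acidic and a basic residue at fixed spacing, which closes the carrier from 1 side.

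On each array a probe's value is the background-subtracted signal of its spots, and a log2 level is that signal relative to the array's 75th percentile, which lay at a signal of 169 in the control sample and 190 in the N2ICD sample. Differences are log2 levels of N2ICD minus control, a signal is the brightness before this scaling, and the signals of different probes are not comparable. A probe counted as measured where the scanner software called it well above background on both arrays. The scanner software called 24916 of 59305 non-control spots well above background in the control sample and 24982 in the N2ICD sample, with 0 saturated. Repeated spots of a probe gave a difference with an SD of 0.14 over 244 probes, with 0.05 for the brightest and 0.25 for the dimmest of 4 groups by level, and different probes of a gene had an SD of 0.25 over 3161 genes. The error given with a value is the scanner software's own error for the spots behind it, and none of these errors covers the spread between animals. The labels of the arrays were checked on Notch2 itself: 1 probe had a signal of 6.01, which is at background, in the control sample and 221 in the N2ICD sample, while another gave 189 and 179, and the Notch target Hes1 was 5.59-fold higher on the N2ICD array. All 7 markers of skeletal muscle fibres were measured, with differences from -0.52 to 0.25 and a median of -0.26. Of other cells' markers, 6 of 6 for fibroblasts had a median of -0.27, from -0.41 to 0.11. For endothelium 5 of 5 had a median of -0.34, from -0.59 to 0.12. For leukocytes 4 of 5 had a median of -0.19, from -0.61 for Csf1r to 0.40 for Lyz2, with Ptprc at background on both arrays. For adipocytes 3 of 4 had a median of -0.08, from -0.30 to 0.37. For nerve 3 of 4 had a median of 0.04, from -0.32 for Sox10 to 0.78 for S100b. For brown adipocytes Ucp1 was at background and Cidea at -0.62. For cardiac muscle 1 of 3 was measured, Myh6 at 0.30. Tnni3 was at background, and Nppa passed the background call in the control sample only, with signals of 34.2 there and 31.3 in the N2ICD sample. The part of these cells in the carrier values was not tested. In whole muscle, fewer cells of a type and less RNA per cell cannot be told apart.

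The probes are 60 bases long, and 4 are printed because the results turn on them or because they show the family's signature. They are written 5′ to 3′ in the sense of the transcript, with positions on mm9. The muscle ADP/ATP carrier Slc25a4 was read at chr8:47292828-47292887 on the minus strand, and the carnitine carrier Slc25a20 at chr9:108585399-108585458 on the plus strand. The probe of Slc25a26 spans an intron between chr6:94548392-94549185 on the plus strand, and the capitals mark the codons of the signature. The probe nearer the 5′ end of Slc25a37 lies at chr14:69902797-69902856 on the minus strand, and its capitals mark the first codons of the signature, with which the probe ends. Exon or untranslated region was not annotated here for any probe.
Slc25a4: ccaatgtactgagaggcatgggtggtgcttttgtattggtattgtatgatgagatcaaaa
Slc25a20: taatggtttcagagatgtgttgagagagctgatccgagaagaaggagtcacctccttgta
Slc25a26: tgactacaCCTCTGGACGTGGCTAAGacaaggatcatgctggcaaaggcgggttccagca
Slc25a37: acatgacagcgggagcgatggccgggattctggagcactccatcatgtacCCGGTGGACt
A search of each probe for the whole signature in an open reading frame found it in 1 of 58 Slc25 probes, that of Slc25a26, and in 0.707% of 55623 other probes. The Slc25 probes thus mostly read stretches outside the shared signature.

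Of the 47 carriers, 33 were measured on both arrays, through 41 probes. Only the control array gave a measured signal for Slc25a15, and neither array did for 13 carriers. The dimmest measured probe was that of Slc25a46 with signals of 36.9 and 45.6, and Slc25a44 had one at 40.8 and 47.8. Just outside, Slc25a15 had 32.2 in the control sample and 21.2 in the N2ICD sample, Slc25a45 reached 24.8 and Slc25a10 reached 20.9 on their brighter array. The 13 unmeasured carriers were Slc25a2, Slc25a10, Slc25a13, Slc25a18, Slc25a21, Slc25a23, Slc25a31, Slc25a41, Slc25a43, Slc25a45, Slc25a48, Slc25a53 and Slc25a54. Several of these have a close relative that was measured. The testis ADP/ATP carrier Slc25a31, the aspartate/glutamate carrier Slc25a13, known from liver, and the glutamate carrier Slc25a18 were not above background, while Slc25a4 and Slc25a5, Slc25a12 and Slc25a22 were.

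The measured carriers stood at nearly the same level on both arrays. Their median difference was 0.02, with quartiles at -0.09 and 0.17, and the median of all 13668 measured genes was 0.01, with quartiles at -0.19 and 0.19. Of 33 carriers 18 were above 0 and 15 below, and 50.7% of all measured genes were above 0. No carrier reached a 2-fold difference, which 1.43% of all genes did upwards and 0.893% downwards. These signs are relative to the 75th percentile: on the scale of the E1A spike-in probes the median of all genes moved to 0.48, and 32 of 33 carriers were above 0. At 1.5-fold, 1 carrier was higher on the N2ICD array, the folate carrier Slc25a32, against 5.08% of all genes, and 1 was lower, the carnitine carrier Slc25a20, against 4.84%. These are 3.03% of the carriers each, and 31 of 33 lay within 1.5-fold. Of the carriers 13 differed by more than 2 SD of repeated spots at their level, 8 higher and 5 lower, which is 39.4% against 43.9% of all genes.

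**Figure D1:**
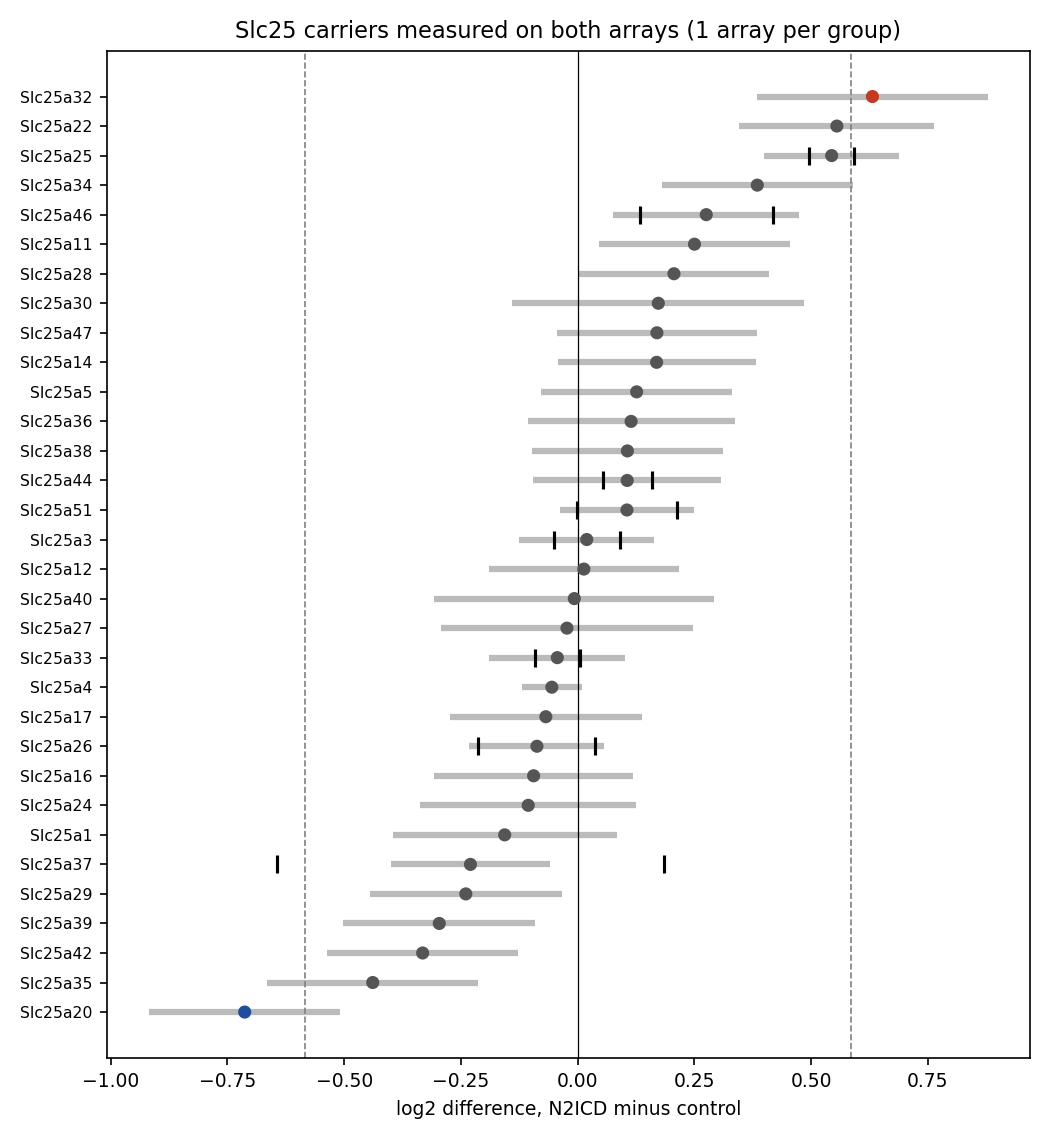
Log2 difference, N2ICD minus control, of 32 of the 33 Slc25 carriers measured on both arrays, ordered by value, with 1 array per group. Dots are gene values, grey bars 1 scanner error each way, black ticks the single probes where a gene had several, and dashed lines mark 1.5-fold; Slc25a32 (red, 0.63) lies above the upper line and Slc25a20 (blue, -0.71) below the lower.

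**Figure D2:**
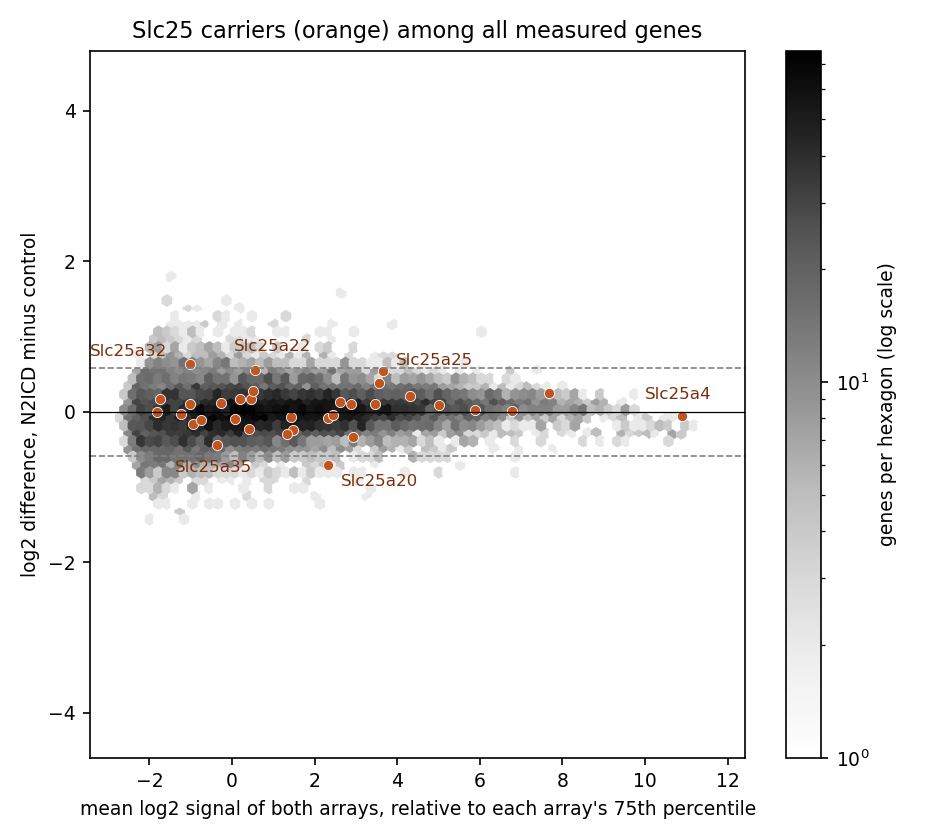
Log2 difference against mean log2 signal relative to each array's 75th percentile, for all 13668 measured genes (grey hexagons, number of genes on a log scale) and the 33 Slc25 carriers (orange dots). Dashed lines mark 1.5-fold, and the carriers lie along the centre of the cloud at all signal levels, with Slc25a4 among the brightest probes.

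The carriers that exchange adenine nucleotides and phosphate, which serve ATP supply, are the first group. Slc25a4, the ADP/ATP carrier of muscle and heart, had a signal of 327192 in the control sample and 354910 in the N2ICD sample, a log2 difference of -0.06 ± 0.06 over 10 spots. The differences of the single spots had an SD of 0.06. Slc25a5, the ADP/ATP carrier of most other cell types, had signals of 997 and 1226, a difference of 0.13 ± 0.20 from 1 probe, and its other probe was at background on both arrays. Slc25a3, which imports phosphate for ATP synthesis, was at 0.02 ± 0.14, from probes at 25091 and 30089 and at 3881 and 4221, with differences of 0.09 and -0.05. The differences of all 3 were within their scanner errors of 0. That of Slc25a5 was nonetheless beyond 2 SD of repeated spots at its level, where the SD was 0.05.

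The ATP-Mg/phosphate carriers set the size of the adenine nucleotide pool of the matrix, and most of them respond to calcium in the cytosol. Of the 4 genes, Slc25a23 and Slc25a41 were not measured. Slc25a25 was higher on the N2ICD array by both of its probes, with signals of 1146 and 1947 at one and of 2738 and 4348 at the other. Its probe differences were 0.59 and 0.49, with a mean of 0.54 ± 0.14, or 1.46-fold. Slc25a24 had signals of 104 and 108 and a difference of -0.11 ± 0.23. The difference between these relatives was not tested.

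The creatine and adenylate kinases, which move phosphate between nucleotides and creatine in the cytosol, the intermembrane space and the matrix, had a median below that of the carriers. Of 7 measured, 5 were below 0, with a median of -0.27 (0.21 on the spike-in scale, where all genes had 0.48), and 2 were at least 1.5-fold lower, where 4.84% of all genes were. Ak4, an adenylate kinase of the matrix, had signals of 153 and 91.7, a difference of -0.91 ± 0.23. Ckb, the brain-type creatine kinase, was at -0.85 ± 0.15, from probes at -1.10 and -0.60, and Ckm, the muscle creatine kinase that is also a fibre marker here, at -0.52 ± 0.20. The mitochondrial creatine kinase Ckmt2, which stands next to the ADP/ATP carrier in the intermembrane space, was at 0.14 ± 0.20. The 16 ATP synthase genes had a median of 0.01, 8 above and 8 below 0. None was past 1.5-fold, where 9.93% of all genes were in either direction. Among them the inhibitor Atpif1 was at -0.57 and the subunits Atp5j and Atp5o at 0.30 and -0.22.

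Slc25a20 carries acylcarnitines into the matrix in exchange for carnitine, and is the only carrier of the family known for this step of fatty acid oxidation. It had a signal of 1084 in the control sample and 745 in the N2ICD sample. The difference was -0.71 ± 0.20 from 1 spot, or 1.64-fold lower, and repeated spots at this level had an SD of 0.08. On the spike-in scale it was -0.23, short of 1.5-fold. In the authors' deposited table it was 1.62-fold lower. The other genes of the carnitine route had values of both signs. Of 5 measured, 3 were above 0 and 2 below, and the median was 0.15. None was past 1.5-fold, where 9.93% of all genes were in either direction. The plasma membrane carnitine transporter Slc22a5 was at 0.41 ± 0.23 and Cpt1b, the muscle carnitine palmitoyltransferase of the outer membrane, at 0.25 ± 0.14. Cpt2, which works on the matrix side, was at -0.34 ± 0.15, and Cpt1a, the liver form of Cpt1, at -0.26 ± 0.08. Crat, the carnitine acetyltransferase, was at 0.15 ± 0.20.

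The malate-aspartate shuttle moves the reducing equivalents of glycolysis into the matrix through a pair of carriers. Slc25a11, the oxoglutarate/malate carrier, had signals of 31465 and 42161, a difference of 0.25 ± 0.20. Slc25a12, the calcium-sensitive aspartate/glutamate carrier, had signals of 18460 and 20991, a difference of 0.01 ± 0.20. Both were bright, and only the difference of Slc25a11 exceeded its scanner error. The shuttle's enzymes lay close to 0, with Mdh1 at 0.17, Got2 at 0.09, Got1 at -0.02 and Mdh2 at -0.05. Slc25a22, which brings glutamate in with a proton, had signals of 205 in the control sample and 340 in the N2ICD sample, a difference of 0.55 ± 0.21, or 1.47-fold, just under the 1.5-fold line. Slc25a1, the citrate carrier, had signals of 92.6 and 93.6, a difference of -0.16 ± 0.24. Of the 18 citric acid cycle genes measured, 15 were above 0, where 50.7% of all genes were, with a median of 0.10. At 1.5-fold higher, where 5.08% of all genes lay, was 1 of the 18, Dld, the dihydrolipoamide dehydrogenase shared by several matrix complexes, at 0.69 ± 0.14.

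**Figure D3:**
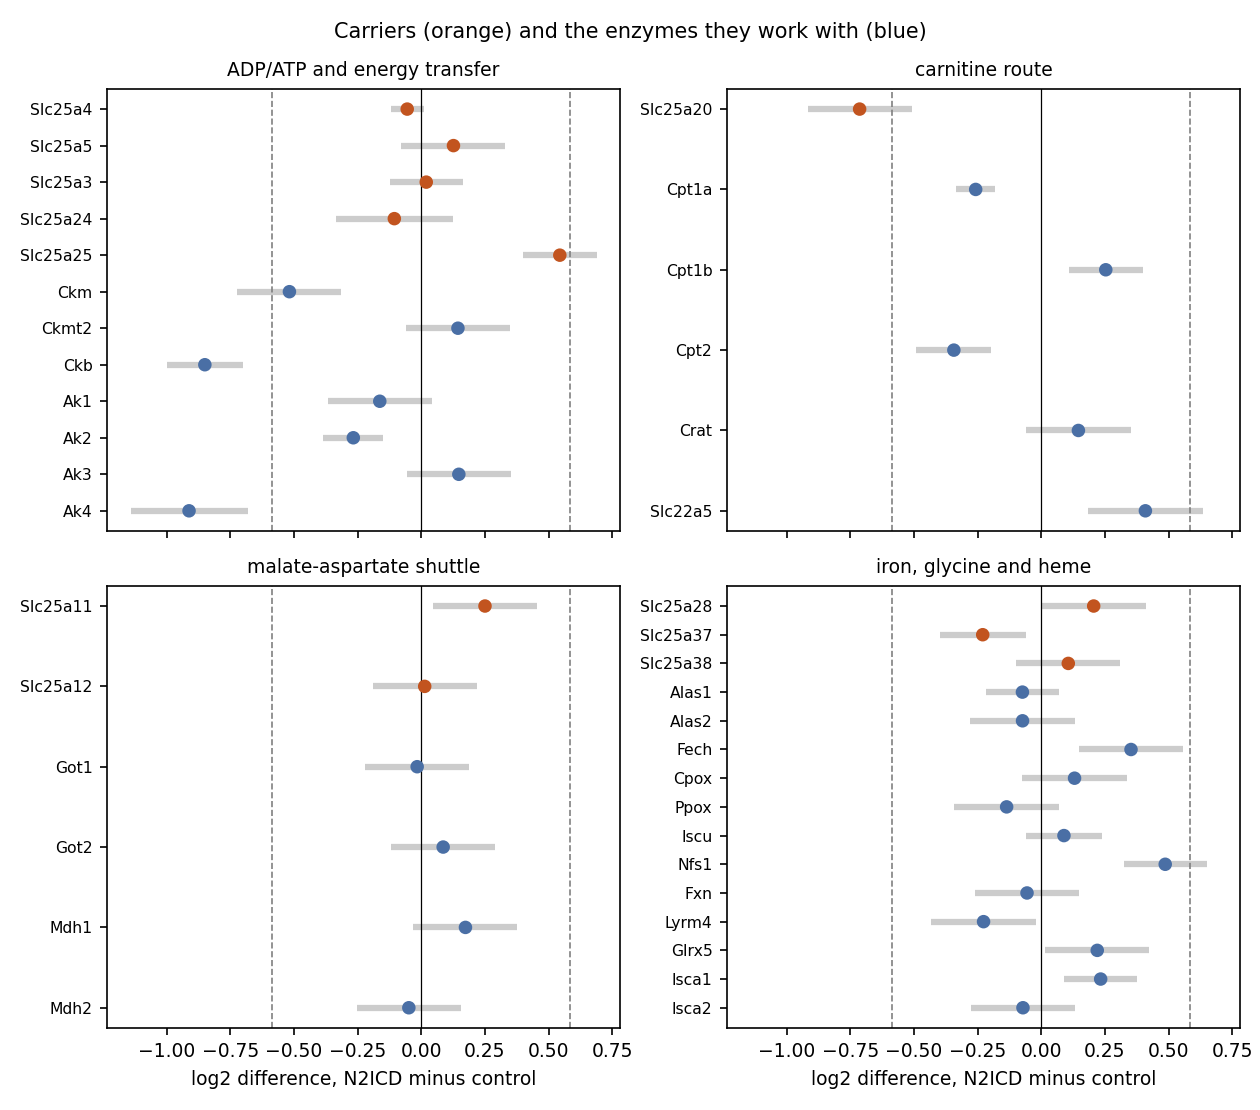
Log2 difference, N2ICD minus control, of carriers (orange) and of enzymes of the same route (blue) in 4 panels, with 1 array per group. Bars are 1 scanner error each way and dashed lines mark 1.5-fold; Slc25a20, Ckb and Ak4 lie below the lower line, while the malate-aspartate genes gather around 0.

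The carriers of amino acids other than glutamate were few. Slc25a15, the ornithine carrier of the urea cycle, passed the background call in the control sample only. After scaling, its control value lay 1.34-fold, or 0.42, above the lowest signal well above background on the N2ICD array, 27.1. That step came from 1 dim spot and was within the probe's scanner error of 0.51, so it sets no minimum for a decrease. Slc25a29, a carrier of basic amino acids, had signals of 508 and 485, a difference of -0.24 ± 0.21. Slc25a44, the carrier of branched-chain amino acids, was at 0.11 ± 0.20 from probes at 0.05 and 0.16. Slc25a38, which brings glycine in for heme synthesis, was at 0.11 ± 0.20. None of these 3 measured carriers was past 1.5-fold, where 9.93% of all genes were in either direction.

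Of the 7 measured carriers of coenzyme A and other cofactors, 3 were above 0 and 4 below. Slc25a32, which carries folate and flavin dinucleotide, had signals of 66.9 in the control sample and 117 in the N2ICD sample. The difference was 0.63 ± 0.25 from 1 dim spot, or 1.55-fold higher, and repeated spots at this level had an SD of 0.25. With background removed by another model (normexp) and an offset of 50 added to each signal, it was 0.33, short of 1.5-fold. Such an offset draws the differences of dim probes towards 0, and its part in this change was not tested. Slc25a42, which imports coenzyme A, had signals of 1452 and 1300, a difference of -0.33 ± 0.20. Close to 0 were Slc25a16 at -0.09, the peroxisomal carrier Slc25a17 at -0.07, the S-adenosylmethionine carrier Slc25a26 at -0.09 and the NAD carrier Slc25a51 at 0.11. The pyrimidine nucleotide carriers Slc25a33 and Slc25a36 were at -0.04 and 0.11. Of the glutathione carriers, Slc25a39 had signals of 473 and 434, a difference of -0.30 ± 0.21, and its relative Slc25a40 was at -0.01 ± 0.30.

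The iron carriers, called mitoferrins, take iron to the matrix for heme and iron-sulfur clusters. Slc25a28, the mitoferrin of most tissues, had signals of 3129 and 4067, a difference of 0.21 ± 0.20. Slc25a37, the mitoferrin known from developing red cells, was read by 2 probes that disagreed. The probe nearer the 5′ end, printed above, had signals of 62.5 and 80.0 and a difference of 0.18 ± 0.27. The probe at chr14:69860020-69860079, nearer the 3′ end, had signals of 959 and 692 and a difference of -0.64 ± 0.20, or 1.56-fold lower. The gap of 0.83 between them was as large or larger in 4.40% of the 3161 genes with several measured probes, and the other 7 carriers with 2 measured probes had gaps from 0.10 to 0.28. The mean of -0.23 for this gene therefore describes neither probe. The erythroid markers Hba-a1, Hbb-b1, Alas2 and Slc4a1 were all measured and all below 0, from -0.67 to -0.07, with a median of -0.12 on the scaled values. Their summed signals before scaling were 38180 in the control sample and 40459 in the N2ICD sample, of which Hba-a1 made up 35057 in the control sample. Their part in the Slc25a37 values was not tested. Of 12 heme and iron-sulfur genes measured, 6 were above 0 and 6 below. None was past 1.5-fold, where 9.93% of all genes were in either direction. The largest difference was that of the cysteine desulfurase Nfs1 at 0.49, from probes at 0.17 and 0.80. Next were the ferrochelatase Fech at 0.35 and the assembly protein Isca1 at 0.23.

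**Figure D4:**
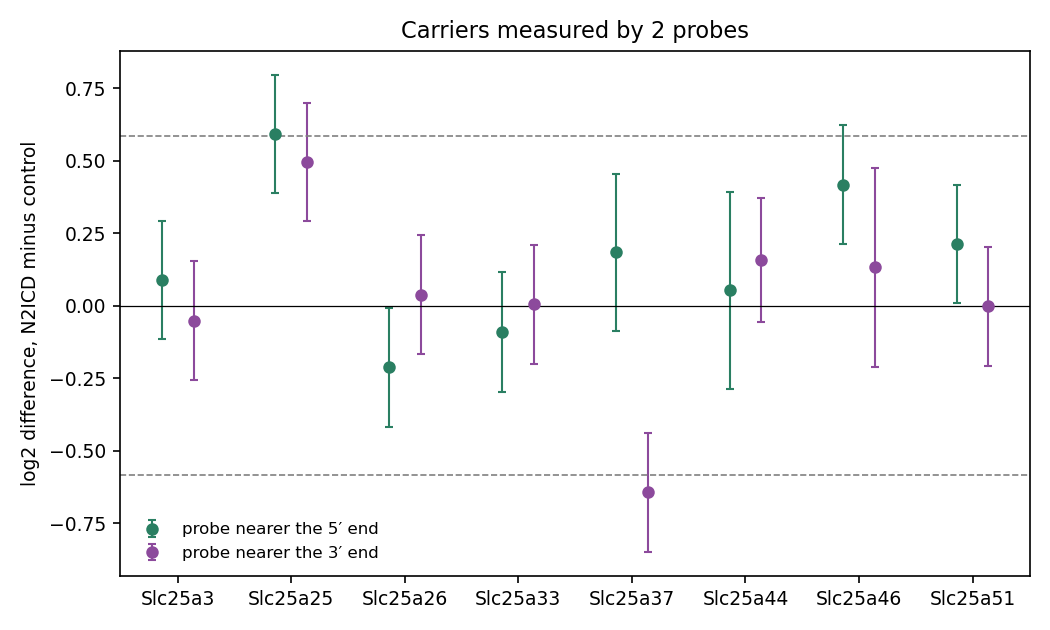
Log2 difference, N2ICD minus control, of the 8 carriers measured by 2 probes, with the probe nearer the 5′ end in green and that nearer the 3′ end in purple. Bars are 1 scanner error each way and dashed lines mark 1.5-fold; the probes of Slc25a37 stand apart at 0.18 and -0.64, while those of Slc25a25 are both near 0.5.

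The relatives of the uncoupling proteins and the carriers of less well known cargo complete the family. Slc25a14, Slc25a27 and Slc25a30 were at 0.17, -0.02 and 0.17, with errors of 0.21 to 0.31. The orphan carrier Slc25a34 had signals of 1755 in the control sample and 2581 in the N2ICD sample, a difference of 0.38 ± 0.20. Slc25a35, likewise without an established cargo, had a difference of the other sign, with signals of 152 and 126 and a difference of -0.44 ± 0.23. Slc25a46, which sits in the outer membrane and acts in mitochondrial dynamics, was at 0.28 ± 0.20 from probes at 0.42 and 0.13. Slc25a47, known from liver, was at 0.17 ± 0.21. It neighbours Slc25a29 on chromosome 12, and these neighbours had differences of opposite sign. In the other 3 neighbouring pairs of carriers at least 1 member was not measured.

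Family proteins that carry other names were measured for 4 of 5 genes, from -0.18 to 0.14. Ucp1 was not measured. Ucp2 was at -0.18 ± 0.22, and Ucp3, the uncoupling protein of skeletal muscle, at -0.04 from probes at -0.20 and 0.13. Mtch1 and Mtch2, relatives in the outer membrane, were both at 0.14. The proteins that bring the carriers to the inner membrane were all measured, and 13 of 16 were above 0, where 50.7% of all genes were. Their median was 0.11 and none was past 1.5-fold, where 9.93% of all genes were in either direction. The highest was the receptor Tomm20 at 0.45 ± 0.12, with 3 probes from 0.38 to 0.52, and Timm22, the channel that places carriers in the membrane, was at 0.24 ± 0.20. The pore subunit Tomm6 was lowest at -0.22 ± 0.20. Of the outer membrane channels through which carrier substrates pass, Vdac1, Vdac2 and Vdac3 were at -0.08, -0.01 and 0.13.

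Transporters of the inner membrane outside the family had a median of 0.07 over 14 of 16 measured genes. Of these 10 were above 0, where 50.7% of all genes were. None was past 1.5-fold, where 9.93% of all genes were in either direction. The mitochondrial pyruvate carrier subunits Mpc1 and Mpc2 were at 0.24 ± 0.14 and 0.19 ± 0.06. Smdt1, a subunit of the calcium uniporter, was at 0.39 ± 0.20. The sideroflexins, serine and amino acid transporters of the same membrane, included the lowest values, with Sfxn3 at -0.55 ± 0.20, Sfxn2 at -0.44 ± 0.17 and Sfxn5 at -0.40 ± 0.25. Sfxn1 was at -0.05, and Sfxn4 passed the background call in the N2ICD sample only, with signals of 25.5 and 43.1. Slc8b1 passed it in the control sample only, with highest signals of 37.6 in the control sample and 29.1 in the N2ICD sample.

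The starts of the carrier genes were searched for the RBPJ motif GTGGGAA on both strands, since N2ICD acts through RBPJ. RefSeq promoters of assembly GRCm38.p6, from 250 bases before to 50 bases after each start, were given for 36 of the 47 carriers. The motif was in 1 of 36, or 2.78%, against 7.25% of 27025 genes. That carrier was Slc25a22, which was 1.47-fold higher on the N2ICD array, and the motif, in capitals, ends 100 bases before 1 of its 3 starts, at chr7:141434665-141434731 on the minus strand.
Slc25a22: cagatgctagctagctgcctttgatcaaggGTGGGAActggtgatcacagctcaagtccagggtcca
The shorter core TGGGAA, which lies within that motif, was in 16.7% of the carriers' promoters, those of Slc25a20, Slc25a22, Slc25a25, Slc25a30, Slc25a34 and Slc25a54, against 28.3% of all genes. The ETS motif CCGGAAG was in 7 of 36, or 19.4%, against 9.93% of all genes, and these were Slc25a3, Slc25a4, Slc25a17, Slc25a20, Slc25a25, Slc25a38 and Slc25a54. The oestrogen-related receptor motif TNAAGGTCA and the NRF1 motif were in 0 of 36, against 1.43% and 1.07% of all genes. The carriers with a TGGGAA core that were measured ranged from -0.71 for Slc25a20 to 0.55 for Slc25a22. A match is a run of letters in this window and not a measured binding site.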

How the data were processed

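Total RNA of each muscle was labelled with Cy3 and hybridised to 1 Agilent array, per the labels' protocols. Per the file headers, the authors read each spot's intensity with Agilent Feature Extraction (version 10.10.1.1), and this processed intensity is background-subtracted but was not normalized between arrays. For 23793 probes the authors' deposited table also lists an intensity, a normalized log2 value and a fold (ratio) without sign; the sources used here do not state its filter. Its intensity was within 0.1% of the processed signal for 99.3% of probes, and it served as an alternative. The file headers place the probes on mm9.

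Here 215 outlier spots and all control spots were left out, log2 signals were reduced by the array's 75th percentile, spots of a probe were averaged into 55672 probes, and a gene's value was the mean of those probes that both arrays called well above background. All 47 carrier names matched the reference symbols. The values of 1 measured carrier are not reported here, though the counts and medians include it. With 1 array per group no test was run, and genes were counted at 2-fold and 1.5-fold. The calculation was also run on simulated arrays with known changes and a single spot SD of 0.14 at all levels. That run covers neither the larger noise of dim probes nor the spread between animals. The number of arrays limits the precision. The members, partner lists and marker lists were chosen with earlier results of these data known. Signals were to be given for Slc25a20, Slc25a4, carriers past 1.5-fold or with probes over 0.5 apart, and close paralogs. The paralogs were to be found by protein identity, which was not computed here, so signals were given for other carriers too, and of partner lists mainly the 3 largest differences and any past 1.5-fold. The alternatives covered background, scaling, the filter on dim probes, the choice of probe and the deposited table. Python 3.11.15, pandas 2.3.3, R 4.3.3 and limma 3.58.1 were used.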

Additional observations from a re-analysis of the deposited data

How the results depend on the processing

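No paired analysis was possible because each group is 1 array and the groups share only the number 1, and no replicate could be left out. On the scale of 7 E1A spike-in probes the median of all genes moved to 0.48 and that of the carriers to 0.50, so that 32 of 33 carriers were above 0, with Slc25a20 the exception at -0.23 and Slc25a4 at 0.42. On that scale 13 carriers passed 1.5-fold and 3 passed 2-fold upwards, 0 passed 1.5-fold downwards, where 35.0% of all genes passed 1.5-fold upwards and 0.739% downwards. The carriers' median stood 0.01 above that of all genes on the main scale, 0.06 with quantile normalization and 0.08 where only a gene's brightest probe was used. Signs given for carriers below 0 are thus relative to the 75th percentile. Slc25a4 was at 0.014 with median scaling, 0.076 with quantile normalization and 0.034 with a loess fit on signal level. At 1.5-fold higher there were 3 of 33 carriers with median scaling (Slc25a22, Slc25a25 and Slc25a32), against 6.67% of all genes. With normexp background correction and its offset of 50, which draws differences of dim probes towards 0, there were 0 of 33, against 2.63%. With no filter on dim probes, which lets in probes at background, there were 4 of 47 carriers, against 8.07% of 27478 genes. At 1.5-fold lower there were 2 of 34 with probes above background on at least 1 array, against 7.10% of all genes. There were 2 of 33 with the brightest probe of each gene (Slc25a20 and Slc25a37), against 5.02%, and 4 of 47 with no filter, against 8.92%. Slc25a20 was at -0.61 with normexp, and below 0 in all 11 alternatives, which re-read its 1 spot and are not separate checks. The alternatives on the filter, the choice of probe and outlier spots could not change it and left it at -0.71. Slc25a25 and Slc25a22 lay between 0.49 and 0.61 and between 0.46 and 0.62 without the spike-in scale. Dim probes, such as those of Slc25a32 and Slc25a30, are the least precise.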
